A study of Mus musculus with 2 samples.

Results

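The miR-17-92 and miR-106b-25 clusters are polycistronic miRNA genes that are known for their activity in dividing cells. Their 9 guide strands were compared here between the 3rd mammary gland (the gland) and the inter mammary gland region (the flank). The members were taken by name from both array files. They are mmu-miR-17, mmu-miR-18a, mmu-miR-19a, mmu-miR-19b, mmu-miR-20a and mmu-miR-92a of miR-17-92 (6 members) and mmu-miR-106b, mmu-miR-93 and mmu-miR-25 of miR-106b-25 (3 members), out of 696 miRNAs in all. Both tissues came from untreated embryos of ICR mice at E13.5. The flank was taken from between the 3rd and the 4th glands, and the comparison asked which miRNAs differ between a forming gland and the tissue beside it. For either tissue, 100 ng of RNA was labelled with Cy3 and hybridized to 1 Agilent array, with no replicate. How many embryos were pooled for an RNA sample is not given in the sources used here. In bulk tissue, fewer cells of a type and less RNA per cell cannot be told apart.

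In each of these clusters a long primary transcript is cut into several hairpins, and from each hairpin a mature guide strand is loaded into the silencing complex. The guide pairs with messenger RNAs mainly through its seed, the bases 2 to 8 from the 5′ end, so that miRNAs with a common seed share many targets. miR-17-92, also called oncomir-1, is transcribed under Myc and E2F factors, and is needed for normal growth of the embryo. miR-106b-25 lies in an intron of Mcm7, which encodes a subunit of the replicative helicase. Together with a further copy on the X chromosome, miR-106a-363, they form a family of paralogs.

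The 9 mature sequences are shown because the seed classes and the near identity of several members govern how their signals can be read. They were taken from RefSeq (GRCm38.p6), which held all 9 under the names of the guide arms. Seeds are in capitals. 4 members from both clusters carry the miR-17 seed, AAAGUGC, which is known for targeting cell cycle inhibitors such as Cdkn1a.
miR-17: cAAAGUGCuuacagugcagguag
miR-20a: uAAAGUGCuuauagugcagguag
miR-106b: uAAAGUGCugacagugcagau
miR-93: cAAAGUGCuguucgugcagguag
The miR-18 seed, AAGGUGC, has 1 member. It differs by 1 base from the miR-17 seed, and is known for targets in TGF-β signalling.
miR-18a: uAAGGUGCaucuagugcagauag
The miR-19 seed, GUGCAAA, has 2 members. Both are encoded in miR-17-92, and miR-19b also on the X chromosome.
miR-19a: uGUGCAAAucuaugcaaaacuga
miR-19b: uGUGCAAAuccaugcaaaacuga
The miR-92 seed, AUUGCAC, has 2 members, 1 from each cluster, and is known for repression of the cell death gene Bcl2l11.
miR-92a: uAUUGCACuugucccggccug
miR-25: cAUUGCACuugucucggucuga

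In GRCm38.p6 the 6 hairpins of miR-17-92 lay within 836 bases of the plus strand (chr14:115043671-115044506), in the order miR-17, miR-18a, miR-19a, miR-20a, miR-19b and miR-92a. The 3 hairpins of miR-106b-25 lay within 498 bases of the minus strand (chr5:138165321-138165818), in the order miR-106b, miR-93 and miR-25. The mature miR-19b and miR-92a were encoded a further time on the X chromosome, at chrX:52741991-52742013 and chrX:52741854-52741874, so their signals cannot be assigned to miR-17-92 alone. Counted from the 5′ end, miR-19a and miR-19b differed at 1 of 23 bases (U11C, with the base of miR-19a given first). Between miR-17 and miR-20a 2 of 23 bases differed (C1U and C12U), and between miR-92a and miR-25 3 of the 21 bases they share (U1C, C14U and C18U). miR-93 was farther from miR-17, with 4 differences over 23 bases, all at positions 10 to 13 (U10G, A11U, C12U and A13C). How far the probes for such close members also bind each other's RNA was not tested.

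Each member was read by 2 probes of 10 spots on each array. Of the 180 member spots on an array, 177 remained for the gland and 176 for the flank after outlier spots were left out, and all of them were well above background. The dimmest member spot had a background-subtracted signal of 59.4 in the gland and 52.5 in the flank. The brightest negative control spots reached 17.3 and 19.2, so all 9 members were clearly detected in both regions. The spread over the spots of a member probe was small, with a coefficient of variation of 2.06% to 10.4% and a median of 6.80%. No miRNA spot was saturated.

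**Figure D1:**
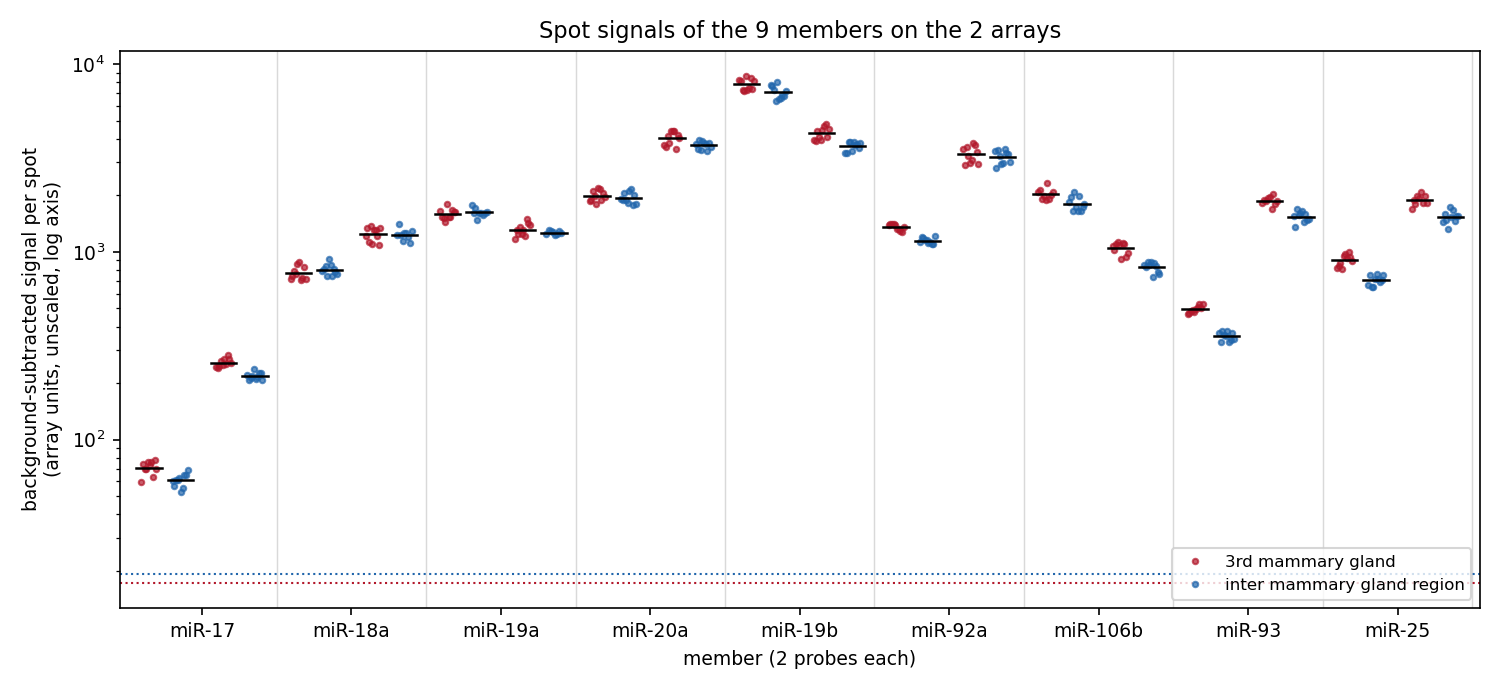
Background-subtracted signal (array units before scaling, log axis) of every spot used for the 9 members, with 2 probes per member, in the gland (red) and the flank (blue). Black bars are means over spots and dotted lines are the brightest negative control spot of each array (17.3 and 19.2). Every member spot lies above these lines, and the clouds of both regions lie close together at each probe.

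The signals of the miR-17-92 members are given as mean ± SD over spots, in array units before any scaling between the arrays. For miR-17, which gives its name to the seed class, the probes read 70.8 ± 5.86 and 257 ± 12.8 in the gland and 60.7 ± 4.86 and 218 ± 9.65 in the flank (10 spots each). For miR-18a they read 774 ± 65.7 and 1242 ± 108 in the gland and 804 ± 52.4 and 1236 ± 84.8 in the flank (9 spots for the last and 10 for the others). Both probes of miR-17 were thus brighter in the gland, and those of miR-18a were near equal in both regions. For miR-19a, the probes read 1593 ± 105 and 1313 ± 99.6 in the gland (10 spots each) and 1624 ± 81.9 (9 spots) and 1267 ± 26.1 (8 spots) in the flank. For its sister miR-19b they read 7819 ± 552 and 4281 ± 328 in the gland and 7100.0 ± 562 and 3658 ± 203 in the flank (10 spots each). Spots of miR-19a overlapped between the regions at both probes, while the second probe of miR-19b was brighter on every spot in the gland. miR-20a, the close relative of miR-17, gave 1988 ± 135 and 4023 ± 341 in the gland and 1944 ± 137 and 3699.9 ± 163 in the flank (10 spots each). miR-92a, the last hairpin of the cluster, gave 1357 ± 47.8 and 3326 ± 346 in the gland and 1149 ± 38.6 and 3211 ± 265 in the flank (10 spots each). The spots of miR-20a overlapped at both probes, and those of miR-92a at its second probe only. These comparisons were made before scaling between the arrays. After the scaling described below, the spot ranges of the regions overlapped at every probe of miR-17-92.

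In miR-106b-25 every probe was brighter on average in the gland before scaling. The probes of miR-106b read 2039 ± 139 (9 spots) and 1048 ± 76.1 (10 spots) there, against 1805 ± 155 and 829 ± 54.1 in the flank (10 spots each). The probes of miR-93 read 494 ± 20.5 (10 spots) and 1874 ± 99.1 (9 spots) in the gland and 355 ± 18.8 and 1542 ± 99.5 in the flank (10 spots each). The probes of miR-25 read 902 ± 66.4 (10 spots) and 1894 ± 120.4 (9 spots) in the gland and 707 ± 42.6 and 1536 ± 114 in the flank (10 spots each). For each of these 3 miRNAs 1 probe had no overlap between the regions and the other probe overlapped. Which array was brighter as a whole depended on the measure, however. Dividing by the 75th percentile of all probes raised the median log2 ratio of all miRNAs, gland over flank, from 0.18 to 0.21. Over probes detected in both tissues, the 75th percentile of the signal was 786 in the gland and 719 in the flank. Signals called scaled were divided by these values, whose quotient was 1.09. After this scaling the spot ranges of the regions overlapped at 17 of the 18 member probes, and only the first probe of miR-93 stayed apart. The share of all detected probes without overlap, before or after scaling, is not given here, so these counts do not set the members apart.

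None of the 9 members differed by as much as 1.5-fold between the regions. With scaled signals, the log2 ratios of the gland over the flank ran from -0.15 to 0.19, that is from 1.11-fold lower to 1.14-fold higher. Across the 284 miRNAs detected on both arrays, 2.11% were at least 1.5-fold higher in the gland and 9.15% at least 1.5-fold lower, or 11.3% in all, and 0 of 9 members were found in either direction. At 1.2-fold, 19.7% of all miRNAs were higher and 17.6% lower, or 37.3% in all, again with 0 of 9 members in either direction. This count rests on the scaling. miR-93 and miR-25 passed 1.2-fold higher without scaling and after quantile normalization. They also did so when the divisor was the median of detected probes or the 75th percentile over all probes (log2 ratios of 0.31 to 0.35 in these settings). miR-19b passed it after quantile normalization (0.41). In the same settings the median log2 ratio of all miRNAs was also higher, at 0.17 to 0.21. The share of all miRNAs past 1.2-fold in them is not given here. The median log2 ratio was 0.039 over the 9 members and 0.048 over the 284 miRNAs, of which 129 (45.4%) lay within the range of the members. With 1 array per region no test was possible, and errors below are standard errors over spots, which cover technical spread only.

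Of the 6 members of miR-17-92, 1 (miR-17) lay above the median of all miRNAs and 5 below it. Of these 5, miR-19b lay at -0.0087 relative to that median, closer than its standard error over spots of 0.035. miR-17, with mean signals of 164 in the gland and 139.5 in the flank before scaling, had the highest log2 ratio of the cluster, 0.10 ± 0.026. The lowest was that of miR-18a, at -0.15 ± 0.037, whose signals before scaling were 1008 and 1020.0. miR-19a was next, at -0.12 ± 0.027. miR-20a (-0.039 ± 0.033), miR-92a (-0.027 ± 0.044) and miR-19b (0.039 ± 0.035) lay within 2 standard errors of 0. In the genomic order of the hairpins, the ratios were thus 0.10 for miR-17, -0.15 for miR-18a, -0.12 for miR-19a, -0.039 for miR-20a, 0.039 for miR-19b and -0.027 for miR-92a. The median of the 6 members was -0.033, or -0.081 relative to the median of all miRNAs.

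All 3 members of miR-106b-25 lay above the median of all miRNAs. miR-93 had a log2 ratio of 0.19 ± 0.032 and miR-25 of 0.19 ± 0.034, or 1.14-fold each, and the difference between these neighbours was below their error. miR-106b was lower, at 0.098 ± 0.037, which is 0.050 above the median of all miRNAs. The median of the 3 members was 0.19, which is 0.14 above the median of all miRNAs and within the middle part of all ratios, whose 25th and 75th percentiles were -0.14 and 0.22. Ranked from the highest of the 284 ratios, the members of miR-106b-25 took the places 87 (miR-93), 88 (miR-25) and 120 (miR-106b), and those of miR-17-92 ran from 119 (miR-17) to 215 (miR-18a).

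**Figure D2:**
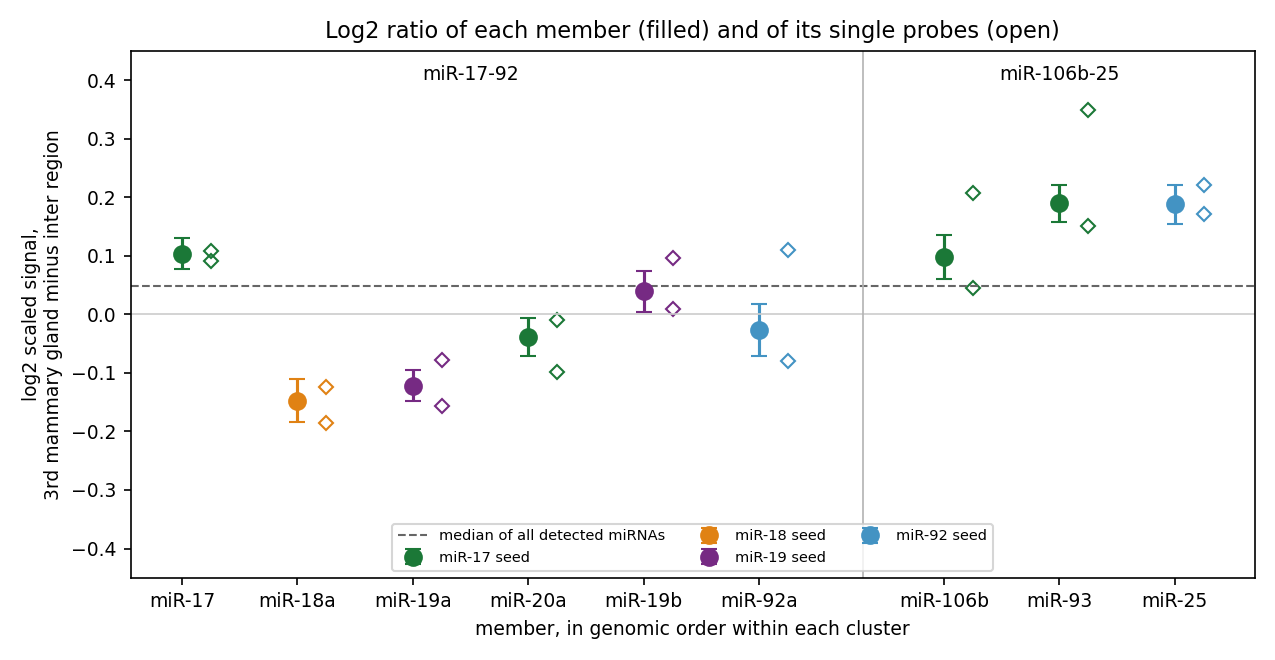
Log2 ratio of scaled signals, gland minus flank, for each member (filled, with the standard error over spots) and for each of its probes (open), coloured by seed class and in genomic order. The members run from -0.15 (miR-18a) to 0.19 (miR-93), close to the dashed median of all detected miRNAs (0.048), and the probes of a member are up to 0.20 apart.

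The medians of the clusters differed by 0.22 on the log2 scale, with miR-106b-25 the higher. The probes of a single miRNA differed by amounts of a similar order. Over the 244 miRNAs with at least 2 probes detected on both arrays, the gap between the highest and the lowest probe had a median of 0.083 and a 90th percentile of 0.25 on the log2 scale. Among the members it ran from 0.017 for miR-17 to 0.20 for miR-93, whose first probe gave 0.35 ± 0.031 and whose second gave 0.15 ± 0.039. The probes of miR-92a lay on either side of 0, at 0.11 ± 0.022 and -0.079 ± 0.061. Of the 18 member probes, 11 had a log2 ratio above 0 and 7 below. With no replicate array, the spread between RNA samples of a region is unknown, and the difference between the clusters was not tested.

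Grouping by seed split the members along other lines than the clusters. In the miR-17 class, the median log2 ratio of 4 members was 0.10, with miR-20a lowest and miR-93 highest. The single miR-18 member had -0.15. The miR-19 class, whose 2 members are encoded in miR-17-92 (miR-19b also on the X chromosome), had a median of -0.041, and the miR-92 class one of 0.080. Within a class, members of miR-106b-25 were compared with those of miR-17-92 in 5 pairs. miR-93 exceeded miR-20a by 0.23 ± 0.046 on the log2 scale and miR-17 by 0.086 ± 0.041. miR-106b exceeded miR-20a by 0.14 ± 0.050, and was level with miR-17 (a difference of -0.0055 ± 0.046). miR-25 exceeded miR-92a by 0.21 ± 0.056. Thus 4 of the 5 pairs had the higher ratio in miR-106b-25, but the pairs reuse the same members and are not independent. The errors also leave out the gap between the probes of a member, which was 0.19 for miR-92a and 0.20 for miR-93. The 3 pairs of equal seed inside a cluster differed by 0.091 to 0.16. miR-19b exceeded miR-19a by 0.16 ± 0.044, although 1 base separates them, and miR-17 exceeded miR-20a by 0.14 ± 0.042. In the last of these pairs, miR-93 exceeded miR-106b by 0.091 ± 0.049.

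**Figure D3:**
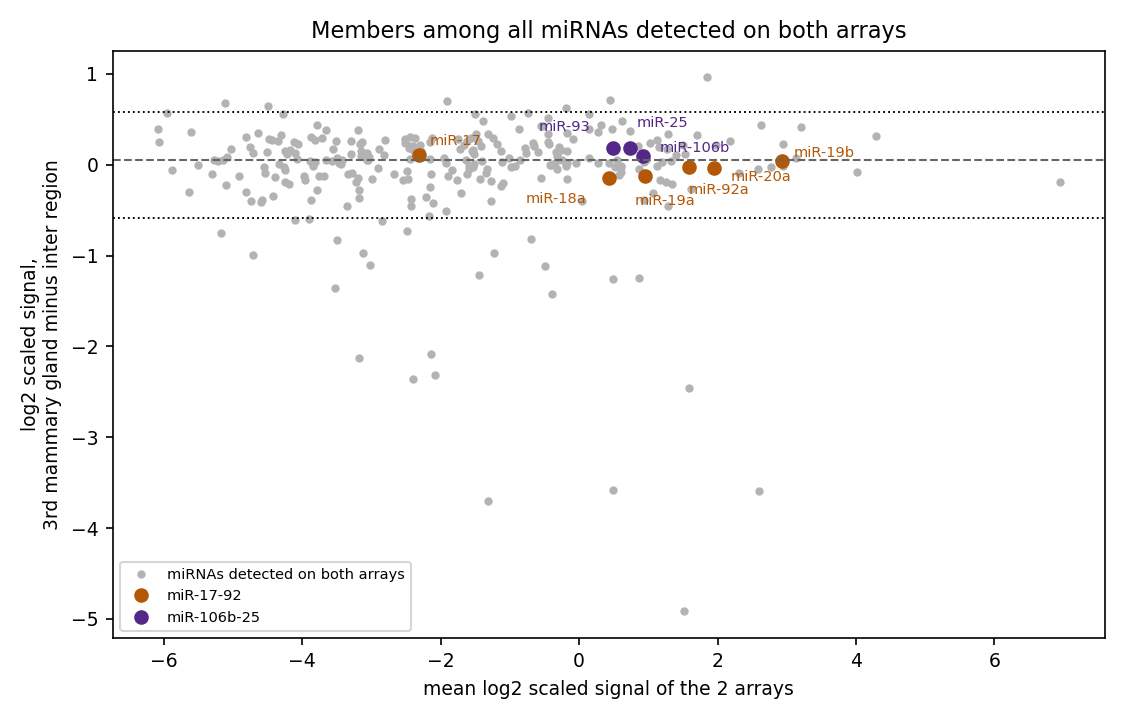
Log2 ratio of scaled signals, gland minus flank, against the mean log2 scaled signal of both arrays for the 284 miRNAs detected on both (grey), with miR-17-92 in orange and miR-106b-25 in purple. Dotted lines mark 1.5-fold and the dashed line the median of all (0.048). The 9 members form a flat band between the dotted lines, and 8 of them lie among the brightest 71.

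When the 284 miRNAs were divided by mean signal into 4 bins of 71, 8 of the 9 members fell in the brightest bin and miR-17 in the second from below. The medians of the bins lay between 0.021 and 0.094 on the log2 scale. In the brightest bin the median was 0.027, with 25th and 75th percentiles of -0.098 and 0.23. The bins order brightness and not abundance, since probes differ in how strongly they bind.

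The passenger strands, usually the less abundant strand cut from the other arm of each hairpin, are named with a star on this array. Of 12 possible names that were looked for, 7 were present and 4 were detected on both arrays. miR-17* had mean signals of 208 in the gland and 181 in the flank before scaling, and a log2 ratio of 0.074 ± 0.032, next to the 0.10 of its guide miR-17. It was brighter than this guide (164 and 139.5), though brightness does not give abundance. miR-106b* read 23.9 and 20.5 before scaling, with 5 of 20 and 5 of 19 spots well above background. Its ratio of 0.089 ± 0.13 is too uncertain to be set against the 0.098 of miR-106b. miR-20a* read 46.0 and 37.4 before scaling, with 10 of 19 and 10 of 20 spots well above background. Its ratio was 0.17 ± 0.054 against -0.039 for miR-20a. The log2 ratios of its single probes ran from 0.096 to 3.96, a gap that the error over spots leaves out. miR-18a* was dim, at 13.3 and 9.23, with 4 of 19 and 5 of 20 spots well above background. Its ratio of 0.40 ± 0.16 is the least certain of the 4, and stands against -0.15 for miR-18a. The single probes of miR-18a* ran from -1.83 to 0.77. The median of the 4 passengers was 0.13 and none was past 1.5-fold. No spot of miR-19a*, miR-92a* or miR-93* was well above background in either region.

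From the paralogous miR-106a-363 cluster, 3 of 4 miRNAs that are not also members were present, and miR-106a was not. miR-20b has the miR-17 seed and differs from miR-20a at 2 of 23 bases (U1C and U10C, with the base of miR-20a first). It gave mean signals of 1705 and 1569 before scaling and a log2 ratio of -0.0094 ± 0.026, near the -0.039 of miR-20a. miR-18b and miR-363, which carry the miR-18 and miR-92 seeds, had 0 spots well above background in either region. Of the 3 miRNAs with the miR-92 seed outside these clusters, only miR-32 was detected, with mean signals of 24.9 and 24.9 before scaling and a ratio of -0.13 ± 0.13. miR-92b and miR-367 had 0 spots well above background.

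The tissues themselves differed in other miRNAs. All 4 striated muscle miRNAs (miR-1, miR-133a, miR-133b and miR-206) were at least 1.5-fold lower in the gland, with log2 ratios from -1.43 to -1.12 and a summed signal before scaling of 1646 against 3609.6 in the flank. Of 7 epithelial miRNAs all were detected, and their ratios ran from -0.31 (miR-203) to 0.51 (miR-200a) with a median of 0.34. The 5 members of the miR-200 family were above 0, and none of the 7 was past 1.5-fold. Of 7 blood miRNAs, 5 were detected, from -0.39 (miR-486) to 0.44 (miR-451), the most abundant miRNA of red blood cells, with a median of -0.060. The part of these differences in tissue makeup in the ratios of the members was not tested.

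**Figure D4:**
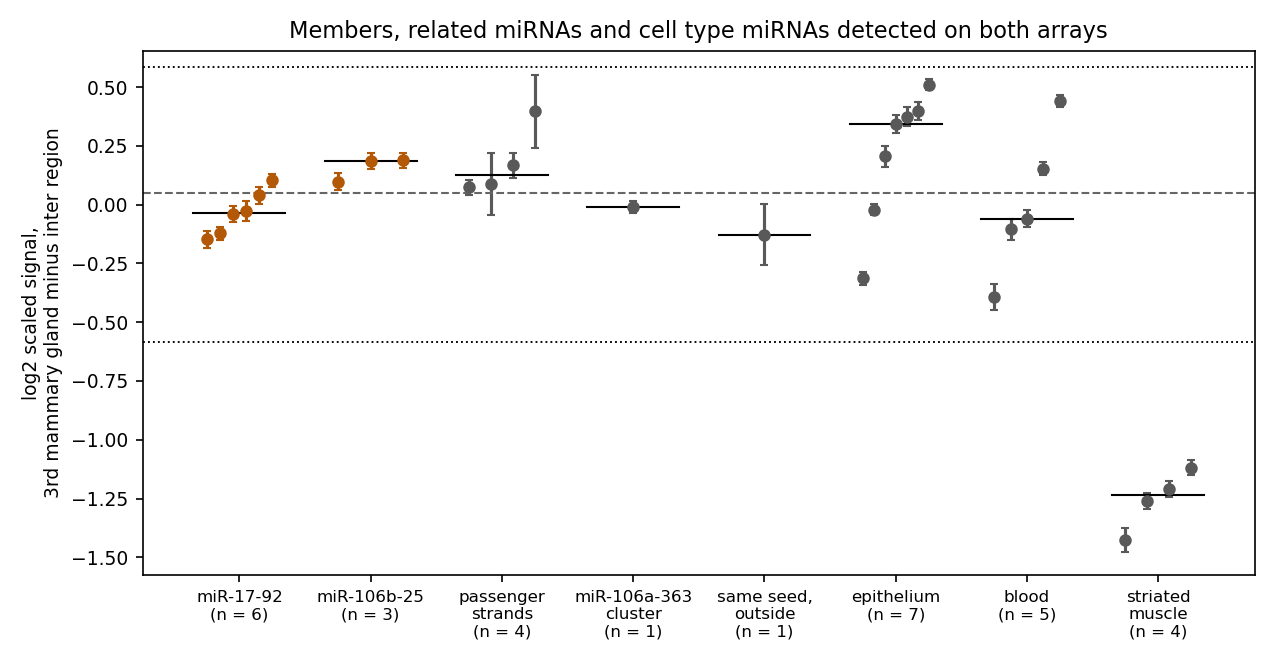
Log2 ratio of scaled signals, gland minus flank, of the miRNAs of each list detected on both arrays (points, with the standard error over spots), with the median of each list as a bar. Dotted lines mark 1.5-fold and the dashed line the median of all detected miRNAs (0.048). The members of both clusters stay near the dashed line, while the 4 muscle miRNAs lie between -1.43 and -1.12.

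The sign of a small ratio depended on how the arrays were scaled. With no scaling the median of all miRNAs went from 0.048 to 0.18, and 8 of the 9 members were above 0 in place of 5. With the 75th percentile of all probes all 9 were above 0. Relative to the median of all miRNAs the picture moved less. Of the 13 alternatives, 5 gave the same values relative to that median as the main setting or as another alternative. A change of divisor alone moves members and median alike, and the deposited table repeats the total signals. In the other 8, miR-17, miR-106b, miR-93 and miR-25 were above that median, and miR-18a, miR-19a and miR-92a below it. miR-20a and miR-19b were above it after quantile normalization and below it in the rest. Not all of these settings could move the members, however. With the software's own call no member ratio changed, and with dim probes left out only that of miR-17 did. With the total signals all members shifted nearly alike. The median of miR-106b-25 lay between 0.12 and 0.15 above the median of all miRNAs. That of miR-17-92 lay between -0.082 and -0.029 relative to it. These settings share the same 2 arrays, so they show how the processing acts and not how RNA samples vary.

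**Figure D5:**
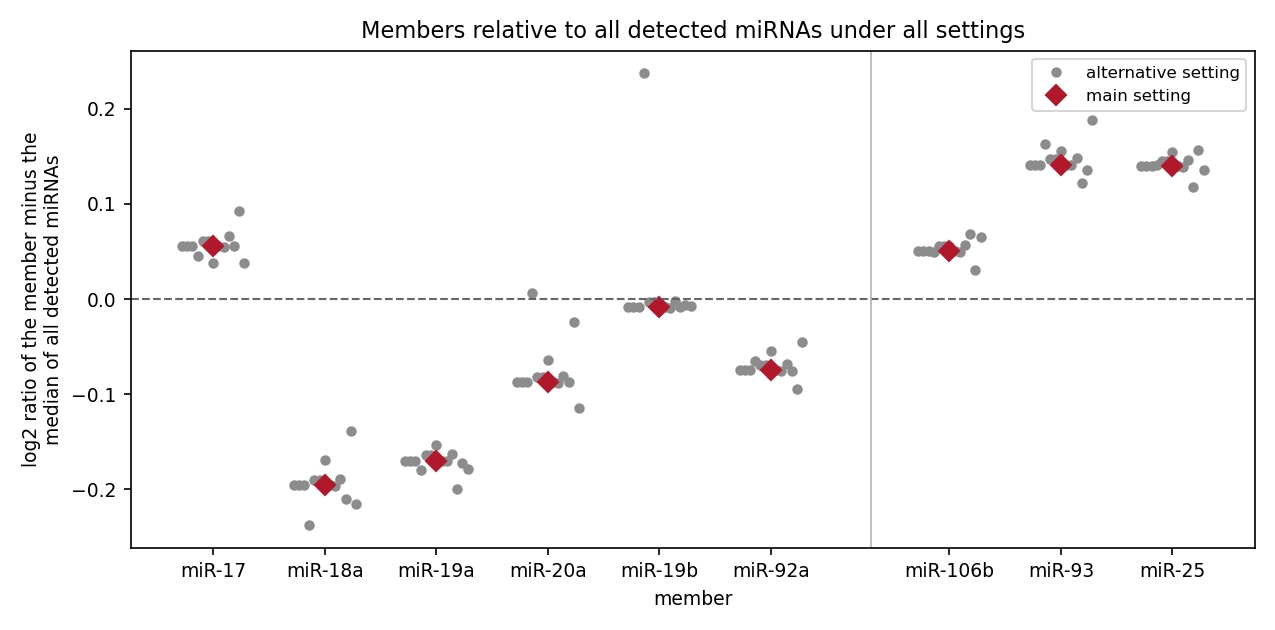
Log2 ratio of each member minus the median log2 ratio of all detected miRNAs, in the main setting (red) and in 13 alternatives (grey). A plain change of scale moves members and median alike, so those points coincide by construction. miR-17 and the 3 members of miR-106b-25 stay above 0, and the highest grey point of miR-19b (0.24) is that of quantile normalization.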

How the data were processed

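miRNA levels were measured on 2 Agilent 1-colour miRNA arrays, 1 per region, grouped by the tissue labels. The arrays shared a slide and a scan, so these do not differ between the regions. The authors read the scans with Feature Extraction (10.7.3.1, per the file headers) and deposited the background-subtracted intensity of each spot, which is linear and not normalized between arrays, and a total intensity per miRNA, listed at 0.1 where the software called none detected. The deposited table holds these totals unscaled, equal within 0.01% for all 696 miRNAs, and its column medians are 0.1. The methods name GeneSpring GX for normalization, without its settings.

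Control spots and outlier spots (1.67% and 2.51% of miRNA spots) were left out. Probe means over the other spots were divided by the array's 75th percentile over probes detected in both tissues, and then averaged per miRNA. Detection of a probe required over 50% of its spots to be well above background, and detection of a miRNA required 1 such probe. Standard errors were propagated from the spread over spots. Precision is limited by the number of arrays. The members, the lists, the 1.5-fold threshold and the alternatives were chosen with earlier results of these data known. The genes named were all members and all miRNAs of the passenger, miR-106a-363 and same-seed lists that were read, and the muscle, epithelial and blood lists were described by count, range and median. Individual miRNAs of these last lists, given at the ends of a range, were named after their values were seen. Array names without an arm were matched to the RefSeq guide arm by nomenclature. The array's grid names another assembly (mm9), and its files hold no coordinates. Steps were tested on simulated spots. Alternatives covered scaling, signal column, background (normexp with an offset of 50 on median pixel signals), detection, dim probes, outliers, the choice among probes and the threshold. Python 3.11.15, numpy 2.4.6, pandas 2.3.3, matplotlib 3.10.9, R 4.3.3 and limma 3.58.1 were used.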

Additional observations from a re-analysis of the deposited data

How the results depend on the processing

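No paired analysis was possible because the labels give no replicate numbers and there is 1 array for each tissue, so no replicate was left out either. Under every alternative all 9 members were detected on both arrays and 0 were past 1.5-fold in either direction. With the main scaling, 0 were past 2-fold or 1.2-fold either. A 1.2-fold threshold under each alternative was added after seeing the data. It gave 2 members higher (miR-93 and miR-25) without scaling. The same 2 passed with the divisor set to the median of detected probes or the 75th percentile over all probes. After quantile normalization it gave 3 (also miR-19b), and 0 were lower under every alternative. Where members passed, the median log2 ratio of all miRNAs was 0.17 to 0.21, and the share of all miRNAs past 1.2-fold is not given here. The medians that moved by more than their standard error over spots are given below on the log2 scale, and where only the divisor changed all values shift alike. Quantile normalization moved the members unequally (miR-19b from 0.039 to 0.41, miR-18a from -0.15 to -0.065). Where more than the divisor changed, the cause was not tested.

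With no scaling, they were 0.097 (miR-17-92), 0.32 (miR-106b-25), 0.23 (miR-17 seed), -0.018 (miR-18a), 0.089 (miR-19 seed), 0.21 (miR-92 seed), 0.26 (passengers), 0.12 (miR-20b), 0.0033 (miR-32), -1.11 (muscle), 0.47 (epithelium) and 0.070 (blood). Scaling by the 75th percentile of all probes gave 0.13 (miR-17-92), 0.35 (miR-106b-25), 0.26 (miR-17 seed), 0.011 (miR-18a), 0.12 (miR-19 seed), 0.24 (miR-92 seed), 0.29 (passengers), 0.15 (miR-20b), 0.032 (miR-32), -1.08 (muscle), 0.50 (epithelium) and 0.099 (blood). Scaling by the median of detected probes gave 0.085 (miR-17-92), 0.31 (miR-106b-25), 0.22 (miR-17 seed), -0.029 (miR-18a), 0.077 (miR-19 seed), 0.20 (miR-92 seed), 0.25 (passengers), 0.11 (miR-20b), -1.12 (muscle), 0.46 (epithelium) and 0.058 (blood). After quantile normalization, they were 0.14 (miR-17-92), 0.31 (miR-106b-25), 0.22 (miR-17 seed), -0.065 (miR-18a), 0.20 (miR-19 seed), 0.21 (miR-92 seed), 0.25 (passengers), 0.16 (miR-20b), -1.18 (muscle) and 0.075 (blood). The total signals and the deposited table, both scaled, gave -0.071 (miR-17-92), 0.15 (miR-106b-25), 0.063 (miR-17 seed), -0.19 (miR-18a), -0.079 (miR-19 seed), 0.042 (miR-92 seed), 0.023 (passengers), -0.048 (miR-20b), -0.49 (miR-32), -1.27 (muscle) and 0.0087 (blood). After normexp, they were 0.074 (miR-17 seed), -1.07 (muscle) and 0.29 (epithelium). When detection required every spot, they were -0.094 (miR-17-92), 0.13 (miR-106b-25), 0.040 (miR-17 seed), -0.21 (miR-18a), -0.10 (miR-19 seed), 0.019 (miR-92 seed), -0.071 (miR-20b), -1.30 (muscle), 0.28 (epithelium) and -0.12 (blood). With the software's own call, as with dim probes left out, it was 0.047 (blood). With outlier spots kept, it was -0.0080 (blood). With the brightest probe, they were 0.15 (miR-106b-25), 0.076 (miR-17 seed), -0.074 (miR-19 seed), 0.046 (miR-92 seed) and 0.049 (passengers). With the mean of the probes' log2 ratios, they were 0.012 (passengers) and -0.29 (miR-32).

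The difference between the medians of the clusters was 0.22 in the main setting and ran from 0.17 (quantile normalization) to 0.22. A change of divisor or of the detection rule shifts all members alike and leaves this difference as it was. The narrow range thus does not show how firm the difference is. Signal over background limits the dim passenger strands and miR-32. After normexp, miR-17, the dimmest member, went from 0.10 to 0.065, by more than its standard error over spots.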
